A study of Mus musculus with 2 samples.

Results

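Mir183, Mir96 and Mir182 are 3 miRNA genes that lie together on mouse chromosome 6. They were taken by their gene identifiers from a table of 1973 miRNA genes counted in embryonic limb, and all 3 were present and detected. The data are microRNA sequencing of total RNA, of a size range below 30 nucleotides, from limbs of B6NCrl mouse embryos at embryonic day 13.5, with male and female embryos pooled. The series holds 1 group of 2 biological replicates, which come from separate tissue samples under one donor label. No genotype, treatment or second tissue is part of the design, so the question it answers for these genes is how much of each is present and how well the replicates repeat it. Each library is a pool of limb tissue, so fewer cells of a type and less miRNA per cell cannot be told apart.

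The 3 hairpins are known to be cut from one primary transcript. The cluster is best known from sensory organs: it is abundant in hair cells of the inner ear, in photoreceptors and in sensory neurons, and mutations in the seed of miR-96 cause hearing loss in mice and people. It is also present in other epithelia. A miRNA pairs with its target mRNAs mainly through its seed, bases 2 to 8 from the 5′ end, and lowers their translation and stability.

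The unit that was counted is the hairpin, so the hairpins are shown first, with the mature strand from the 5′ arm in capitals. Sequences are those of RefSeq on GRCm38.p6, the same build as mm10, and all 3 genes matched.
Mir183: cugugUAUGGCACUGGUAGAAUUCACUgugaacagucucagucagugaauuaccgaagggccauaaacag
Mir96: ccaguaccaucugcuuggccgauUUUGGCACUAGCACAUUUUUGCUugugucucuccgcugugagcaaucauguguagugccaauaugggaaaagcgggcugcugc
Mir182: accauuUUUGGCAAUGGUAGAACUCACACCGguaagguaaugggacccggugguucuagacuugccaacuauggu

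The mature 5′ strands are set side by side to compare their seeds, which are in capitals here. The last line is the strand of another gene that has the seed of miR-96.
miR-183-5p: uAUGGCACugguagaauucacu
miR-96-5p: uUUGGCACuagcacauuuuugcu
miR-182-5p: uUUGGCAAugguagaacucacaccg
miR-1271-5p: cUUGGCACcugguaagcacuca

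No pair of the 3 members has the same 7-base seed. Counted from the 5′ end, miR-96-5p and miR-183-5p differ in their first 8 bases by U2A, and miR-96-5p and miR-182-5p by C8A. The pair miR-183-5p and miR-182-5p differs by A2U and C8A there, yet is the most alike over the whole strand, with 18 of 22 compared bases the same. For miR-96-5p the same count was 13 of 22 against miR-183-5p and 12 of 23 against miR-182-5p. All 3 seeds hold the 5 letters UGGCA, searched on the mature strand only. Among 1679 mature mouse miRNAs in the table, 7 have these letters in the seed, which is 0.417%. The 3 members are among these 7, since the letters were read from their own seeds, so this share is a description only. Besides the members, miR-1271-5p is the 1 mature sequence with the full seed of a member's 5′ strand, that of miR-96-5p. Among the 3′ strands, the full seed of miR-96-3p is found in miR-3475-5p. The counted gene of miR-1271 (Gm24195) had 0 sense counts in both libraries, where 3 counts, the limit that a 0 allows, would be 0.506 CPM (replicate 1) or 0.4997 CPM (replicate 2). CPM are sense counts per 1000000 sense counts in miRNA genes, and these limits, like all intervals here, cover counting error only. The gene Mir3475 had 51 and 48 counts, or 8.30 ± 0.43 CPM (SD, n = 2). Counts are per hairpin and do not separate the mature strands of its 5′ and 3′ arms, so the level of each strand is not known from them.

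The cluster spans 3820 bases of the minus strand (mm10, chr6:30165918-30169737) and lies between genes, as no other annotated gene overlaps it. Mir183 (ENSMUSG00000065619.2, chr6:30169668-30169737) comes first along the transcribed strand. Mir96 (ENSMUSG00000065586.1, chr6:30169446-30169551) follows after a gap of 116 bases. Mir182 (ENSMUSG00000076361.1, chr6:30165918-30165992) lies a further 3453 bases on. The nearest annotated gene is Rncr4, a long non-coding RNA gene on the opposite strand, which begins 3155 bases beyond Mir183. The coding genes on either side are Nrf1, which ends 12459 bases beyond Mir182, and Ube2h, 41551 bases beyond Mir183. Mir183 and Mir96 are thus close in position, while the levels given next were closest for Mir183 and Mir182, the outermost pair.

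**Figure D1:**
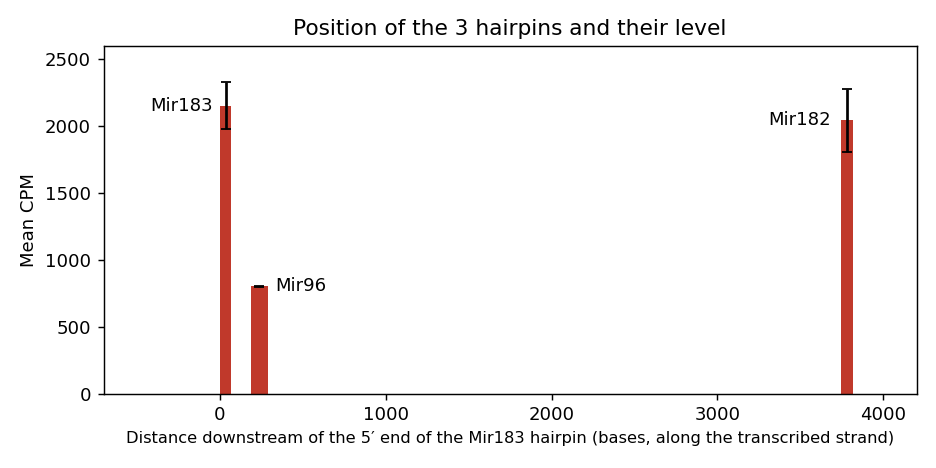
Mean CPM of each hairpin (y axis, bars with SD over 2 libraries) by its distance in bases from the 5′ end of the Mir183 hairpin (x axis, bar width is the hairpin length). Mir96, next to Mir183 in position, has the lowest bar at 801.3 CPM, and the distant Mir182 has a bar close to that of Mir183.

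Together the members held 0.504% of the sense counts in replicate 1 (29881 of 5927321) and 0.496% in replicate 2 (29748 of 6003632). The mean was 0.4998% ± 0.0061 (SD, n = 2), and the exact 95% binomial intervals of the libraries, 0.498% to 0.510% and 0.490% to 0.501%, overlap. As a sum, the cluster therefore repeated closely from one library to the other.

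Mir183 had 12029 sense counts in replicate 1 and 13677 in replicate 2, or 2029 and 2278 CPM. Its mean level was 2154 ± 176 CPM (SD, n = 2), rank 67 of the 1973 counted genes. The higher value was in replicate 2, and the exact 95% intervals of the libraries do not overlap (1993 to 2066 CPM and 2240 to 2317 CPM).

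Mir182 had 13091 and 11272 sense counts, or 2209 and 1878 CPM. Its mean level was 2043 ± 234 CPM (SD, n = 2), rank 69. Here the higher value was in replicate 1, the opposite of Mir183. The ranges of Mir183 and Mir182 over the libraries overlap, so their order was not resolved.

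Mir96 had 4761 and 4799 sense counts, or 803.2 and 799.3 CPM, with a mean of 801.3 ± 2.7 CPM (SD, n = 2) and rank 105. The SD was 0.342% of its mean, against 8.17% for Mir183 and 11.5% for Mir182. The exact intervals of the libraries for Mir96 overlap (780.6 to 826.4 CPM and 776.9 to 822.3 CPM, in the same order). Each is much wider than the SD of Mir96, so an SD this small is below what counting error lets the libraries resolve. Both libraries placed Mir96 below each value of the other members, with no overlap.

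**Figure D2:**
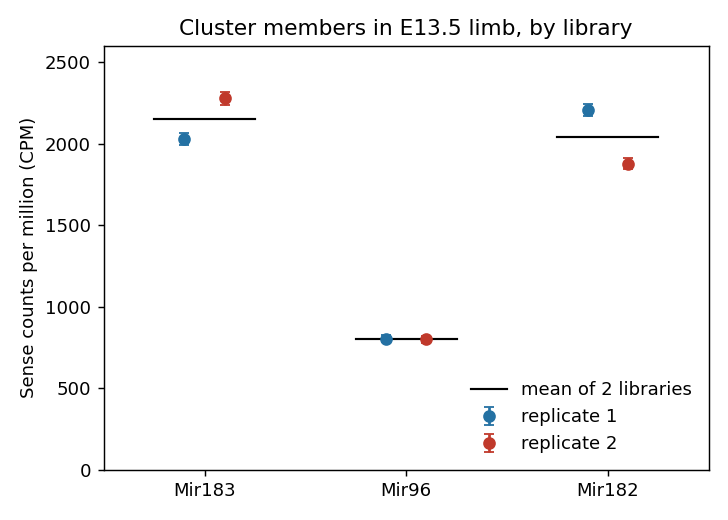
Sense CPM (y axis) of the 3 members (x axis) in replicate 1 (blue) and replicate 2 (red), with exact 95% binomial intervals and the mean of the libraries as a black line. Mir183 is higher in replicate 2, Mir182 is higher in replicate 1, and both Mir96 points lie near 801.3 CPM.

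Counts came from reads of short RNA and were not divided by length, so the ratios within the cluster are given on 3 scales. On counts, Mir183 was above Mir96 by a log2 ratio of 1.34 in replicate 1 and 1.51 in replicate 2, a mean of 1.42 ± 0.12 (SD, n = 2) or 2.68-fold. Mir182 was above Mir96 by 1.46 and 1.23, a mean of 1.35 ± 0.16 or 2.54-fold. Per base of the mature 5′ strand, which is 22 bases in Mir183, 23 in Mir96 and 25 in Mir182, these means were 1.49 and 1.23. Per base of the hairpin, of 70, 106 and 75 bases in the same order, they were 2.02 and 1.84. Mir96 was thus the lowest member in each library on all 3 scales. Its hairpin is the longest of the 3, so the hairpin scale could only widen its distance. The mature lengths differ too little to have changed its place.

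The log2 ratio of Mir182 over Mir183 counts was 0.12 in replicate 1 and -0.28 in replicate 2. Its mean of -0.08 ± 0.28 (SD, n = 2) does not differ from 0 beyond the spread. Per hairpin base the ratio again changed sign, from 0.02 to -0.38. Per mature base it was -0.06 and -0.46, so on that scale Mir183 lay above Mir182 in both libraries. Two-sided exact tests over 2 libraries cannot give a p below 0.5, and none of these ratios was tested.

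As a split of the cluster's own counts, which needs no library total, Mir183 held 40.3% in replicate 1 and 46.0% in replicate 2. Mir182 held 43.8% and 37.9%. The share of Mir96 was 15.9% and 16.1%, with overlapping exact 95% intervals (15.5% to 16.4% and 15.7% to 16.6%). The libraries thus differed in how counts were divided between Mir183 and Mir182, and hardly in what was left for Mir96.

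Counts of every gene in the libraries were set against each other in an exact binomial test (two-sided), adjusted by Benjamini-Hochberg over the 444 genes with at least 10 counts in sum. A gene was called at an adjusted p under 0.05 when its log2 ratio was also 1 or more in size, and 3.38% of the genes tested were called. None of the 3 members was called. Without the minimum ratio 40.3% of genes passed, and 2 of the 3 members did, Mir183 and Mir182. The log2 ratio of replicate 2 over replicate 1 was 0.17 for Mir183 (exact 95% interval 0.13 to 0.20, exact binomial test, adjusted p = 1.60e-19). It was -0.23 for Mir182 (interval -0.27 to -0.20, exact binomial test, adjusted p = 1.21e-35) and -0.01 for Mir96 (interval -0.07 to 0.05, exact binomial test, adjusted p = 0.8996). This test compares the 2 libraries, covers counting error only, and passes readily at this depth. Among the 190 genes of at least 100 CPM, the median absolute log2 ratio was 0.13. Of those genes 120 had a smaller absolute ratio than Mir183, 147 a smaller one than Mir182 and 8 a smaller one than Mir96. Mir183 and Mir182 were thus within the spread of these 190 genes, which were not matched to them in level, and on opposite sides of 0.

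**Figure D3:**
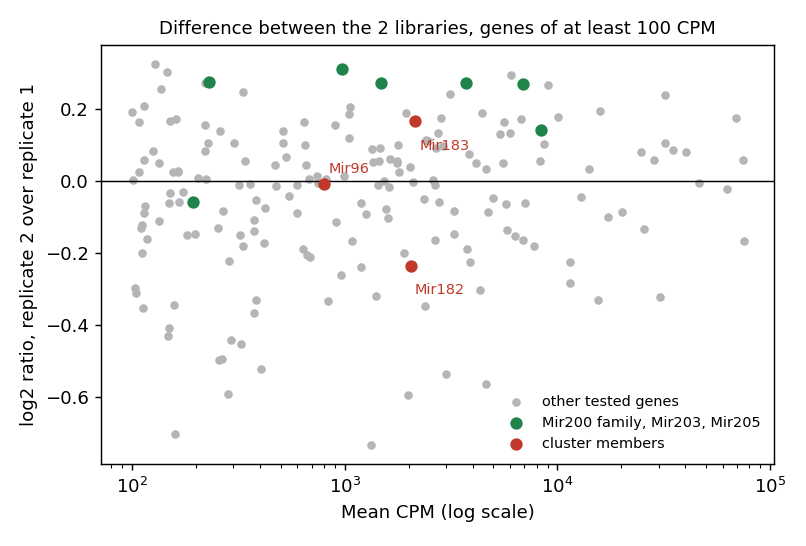
The log2 ratio of replicate 2 over replicate 1 (y axis) against mean CPM (x axis, log scale) for the 190 genes of at least 100 CPM. The cluster members (red) lie at 0.17, -0.01 and -0.23, while 6 of the 7 genes of the Mir200 family, Mir203 and Mir205 (green) lie above 0.

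The genes nearest to the members in level were found among detected genes, which had 10 or more sense counts in both libraries, by the distance of log2(CPM + 1) over the 2 libraries. For Mir183 these were Mir22 (2107 and 2103 CPM, distance 0.13), Mir455 (1992 and 2049 CPM, distance 0.16) and Mir503 (1825 and 2084 CPM, distance 0.20). Mir182 was nearest to Mir298 (2027 and 1766 CPM, distance 0.15), followed by Mir22 and Mir455. Next to Mir96 were Mir15b (816.6 and 819.8 CPM, distance 0.04), Mir540 (754.5 and 751.5 CPM, distance 0.13) and Mir501 (741.0 and 748.4 CPM, distance 0.15). Likeness over 2 libraries is mostly likeness of level.

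Other miRNA genes of epithelia give the closest setting for the cluster. The Mir200 family (Mir200a, Mir200b, Mir429, Mir200c and Mir141) is known to maintain the epithelial state by repressing Zeb1 and Zeb2, and Mir203 and Mir205 are known from the epidermis. All 7 genes were detected. Mir203 and Mir205 were the highest, at 8388 ± 589 and 6918 ± 918 CPM (SD, n = 2). Mir429 lay at 3730 ± 498 CPM, above Mir183 and Mir182 in both libraries. Mir200c followed at 1478 ± 197 CPM, below both of them. Mir200b, at 864.8 and 1073 CPM, was above Mir96 in both libraries. Mir141 and Mir200a were the lowest, at 229.9 ± 30.9 and 193.6 ± 5.4 CPM.

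Summed counts of the cluster were below those of the 7 genes by a log2 ratio of -2.004 in replicate 1 and -2.25 in replicate 2, a mean of -2.13 ± 0.17 (SD, n = 2), which puts the 7 genes 4.37-fold higher. Most of that difference came from Mir203 and Mir205. Against the 5 genes of the Mir200 family the mean was -0.39 ± 0.21, with the members lower in both libraries, and against Mir200a, Mir200b and Mir429, which lie in one cluster, it was 0.04 ± 0.21. Against Mir200c and Mir141 the members were higher, at 1.56 ± 0.21. By the median of log2(CPM + 1) the members were above the 7 genes by 0.41. In sum counts the cluster was therefore about level with the Mir200a, Mir200b and Mir429 cluster, within the spread of the libraries.

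**Figure D4:**
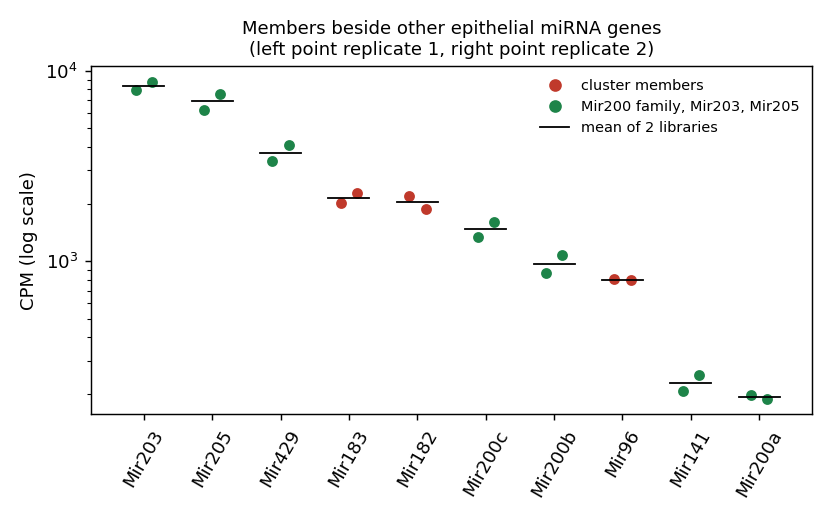
CPM (y axis, log scale) of the 3 members (red) and of 7 other epithelial miRNA genes (green), ordered by mean, with replicate 1 left, replicate 2 right and the mean as a black line. Mir183 and Mir182 lie between Mir429 and Mir200c, and Mir96 between Mir200b and Mir141.

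The epithelial genes moved between the libraries in a way that the cluster did not share as a whole. Their sum was 2.02% of sense counts in replicate 1 and 2.36% in replicate 2. By that exact binomial test 6 of the 7 genes passed on adjusted p, each higher in replicate 2, and none reached the minimum ratio. Over all genes tested 40.3% passed on adjusted p, and 18.2% passed and were higher in replicate 2. Passing depends on depth, and the genes tested were not matched to the 7 in level. The median log2 ratio of the 7 genes was 0.27, against -0.02 over all 444 genes tested. Over the 190 genes of at least 100 CPM the median was -0.006, and 92 of those 190 were higher in replicate 2. Mir200b, Mir429, Mir200c, Mir141 and Mir205 had log2 ratios of 0.31, 0.27, 0.27, 0.27 and 0.27, Mir203 had 0.14 and Mir200a had -0.06. Mir183, at 0.17, lay on their side, and Mir182 on the other. The part of epithelial content in these differences was not tested.

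A list of neurosensory genes was set beside the cluster because of its known place in sensory cells. Of its 13 symbols 10 were found by name among the counted genes, and 6 were detected. The symbols Mir7a-1 and Mir7a-2 were not found. Genes under the close names Mir7-1 (314 and 300 counts) and Mir7-2 (11 and 18 counts) were counted but are not in the list values. A symbol that was not found is therefore not a sign that its gene was absent. Mir375, which is known from neuroendocrine cells, was the highest at 934.1 and 741.7 CPM, close to Mir96. It was lower in replicate 2 by a log2 ratio of -0.33 (exact binomial test, adjusted p = 1.37e-29). None of the other 5 detected genes of the list passed that test, and 4 of those 5 had higher values in replicate 2. Mir204, known from the eye, lay at 332.4 and 346.0 CPM, and Mir211 and Mir184 at 11.0 ± 3.1 and 5.70 ± 0.05 CPM (SD, n = 2). No sense counts in either library came from 4 neuronal genes, which are named here because they were at 0: Mir9-2, Mir124a-1, Mir124a-3 and Mir124a-2. That choice was made with their values in view. Each of these 4 shares at least 22 hairpin bases with another gene, so reads that map to several places could be missing from them. Other genes of the list were not at 0. Mir9-3, which shares 26 bases with another gene, had 10 and 20 counts, and Mir7b had 28 and 34. Summed counts of the cluster were above those of the list by a log2 ratio of 2.06 ± 0.13 (SD, n = 2). Of the 10 counted genes 5 share such a stretch, and Mir7-1 and Mir7-2 are left out of the sum, so this value may be too high.

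The members themselves are little touched by that limit. The longest stretch that any of them shares with another annotated miRNA gene is 11 bases. In a search of 141764 other annotated transcripts for stretches of 18 bases, on both strands, Mir96 and Mir182 had no match. Mir183 had 1, of 18 bases on the same strand, in a transcript of the coding gene Skap2, overlapping its mature 5′ strand.

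Because the hairpins of a cluster are known to come from one transcript, the range of levels inside the cluster was set beside that in other miRNA gene clusters. Clusters were chains of genes on 1 strand with gaps of up to 10 kb, and 42 of them held 2 or more detected genes. The highest and lowest members by the mean over libraries, Mir183 and Mir96, differed by a log2 ratio of 1.42, against a median of 4.36 over all 42 clusters. Within replicate 1, where Mir182 was the highest, the range was 1.46, and within replicate 2 it was 1.51. Of the 42 clusters 9 had a range narrower than 1.42, and each of those held 2 detected genes. Among the 5 clusters with exactly 3 detected genes this was the narrowest. The others had 4.17 (Mir25, Mir93 and Mir106b), 4.26 (Mir429, Mir200a and Mir200b), 6.17 (Mir23a, Mir27a and Mir24-2) and 7.27 (Mir341, Mir1188 and Mir370). Of these 5 clusters, Mir23a, Mir27a and Mir24-2 holds 1 gene that shares 22 or more bases with another, which may widen its range. These values describe clusters, and no test was made.

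**Figure D5:**
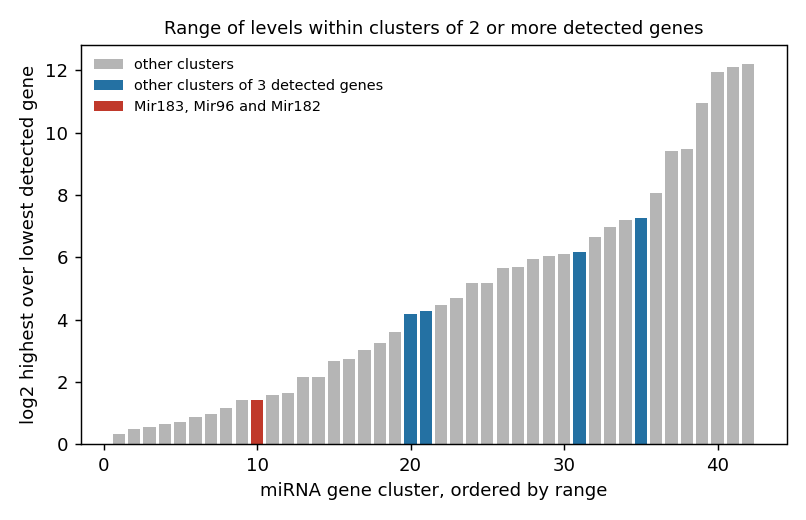
The log2 ratio of the highest over the lowest detected gene (y axis) in 42 miRNA gene clusters ordered by that range (x axis). The cluster of Mir183, Mir96 and Mir182 (red) has 1.42, and the 4 other clusters of 3 detected genes (blue) have 4.17 to 7.27.

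The ratios between libraries were compared in the same way. Within the cluster the log2 ratio of replicate 2 over replicate 1 spanned 0.40, from Mir182 to Mir183. In 15 clusters every detected gene had at least 1000 counts in each library, and the median span over all 15 was 0.15. Of these, 13 had a narrower span, but 11 of the 15 hold 2 detected genes, and a span over 3 genes is wider by construction. The other 3 clusters with 3 detected genes had spans of 0.39 (Mir25, Mir93 and Mir106b), 0.37 (Mir429, Mir200a and Mir200b) and 0.19 (Mir23a, Mir27a and Mir24-2). The first and second of these are close to 0.40. Among pairs the span ran from 0.003 (Mir141 and Mir200c) to 0.50 (Mir15b and Mir16-2). No test was made of these spans.

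The limb label was checked against marker lists. The 4 Hox cluster genes and both cartilage genes were detected, at 9.67% ± 0.64 and 4.86% ± 0.01 of sense counts (SD, n = 2), as were all 7 epithelial genes, 2 of 3 skeletal muscle genes and both liver genes, the last at 0.0158% ± 0.0008. Of 8 counted genes of nervous tissue 4 were detected and 4 were at 0 in both libraries, and 7 of the 8 share 22 or more bases with another gene. Together the nervous tissue genes held 0.0413% ± 0.0012 of sense counts (SD, n = 2), above the share of the liver genes.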

How the data were processed

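Per the labels and the text deposited with the tables, the authors sequenced short RNA of 2 limb libraries, and the tables name mm10 and GENCODE M4. The authors deposited raw read counts per miRNA hairpin gene. Aligner and counter were not given in the sources used here. Each table has 3 count columns without a header, and in all 1973 genes the first equals the sum of the other two, which were read as sense and antisense counts from this layout. Total reads were 12407140 (replicate 1) and 12657170 (replicate 2). Rows without a gene name (unmapped 17.2% and 18.6%, multimapping 30.8% and 29.5%, no gene on the sense strand 4.24% and 4.48%) stayed out of library sizes. A limit for 0 was 3 counts. Reads were taken as counted, since no source names molecular identifiers.

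Symbols and hairpins came from GENCODE M21 on GRCm38 (1894 of 1973 identifiers matched, all 3 members with the same version) and mature sequences from RefSeq. Tests used Python 3.11.15 with scipy 1.17.1. The test was checked on simulated counts that held counting error only and no spread between replicates, so that check does not cover replicate spread. Scalings came from edgeR 4.0.16 and DESeq2 1.42.0, and folding from ViennaRNA 2.7.2. The log2 ratio added 0.5 counts. Genes named are the members, the 3 nearest in level to each, the epithelial list, up to 4 neurosensory genes, miRNA genes within 1 Mb and genes with a member's seed. The neurosensory genes at 0, Mir9-3, Mir7b, Mir7-1, Mir7-2 and the genes of other clusters were named outside this rule, after their values were seen. Members and lists were chosen with earlier results of these data known. Alternatives were other denominators, scalings, strands, count minimums, cluster gaps and length scales, and each library alone. P-values cover only the counting error between these 2 libraries.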

Additional observations from a re-analysis of the deposited data

Results flagged for a closer look

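Reads on the opposite strand over the members enter no level above. At 2 of the 3 genes their mean over the libraries exceeded 3 counts, the limit that a count of 0 allows. Mir182 did not exceed that limit in replicate 1. Over Mir183 there were 8 antisense counts in each library, a mean of 8, or 0.0665% and 0.0585% of its counts on both strands. Over Mir182 there were 3 and 4, a mean of 3.5. Mir96 had 0 antisense counts in both libraries. For comparison, 334 of the 372 detected genes had no antisense count in either library, and antisense reads were 0.219% and 0.209% of all counts over detected genes. No annotated gene lies on the opposite strand there, and the source of these reads was not tested.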

How the results depend on the processing

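With all reads in the denominator the means of Mir183, Mir96 and Mir182 were 1025, 381.4 and 972.8 per 1000000 reads, and the share of the 3 was 0.238%. With uniquely mapped reads Mir183 and Mir96 were at 1973 and 734.0 and the share was 0.458%. With both strands counted Mir96 was at 775.5 and the share 0.484%, and without genes sharing 22 or more bases in the denominator Mir96 was at 823.2. These shifts follow from the size of the denominator. Per hairpin base, a scale added after seeing the data, the log2 ratios of Mir183 and Mir182 over Mir96 were 2.02 and 1.84. The log2 ratio of the members over the 7 epithelial genes was -0.39 without Mir203 and Mir205. It reversed to 0.41 between list medians and to 1.56 against Mir200c and Mir141. Against Mir200a, Mir200b and Mir429 it was 0.037, with the libraries on both sides of 0 (0.18 in replicate 1, -0.11 in replicate 2). The sets of Mir200c and Mir141 and of Mir200a, Mir200b and Mir429 were added after seeing the data. Without the minimum ratio 179 genes were called between the libraries in place of 15, Mir183 and Mir182 among them. Mir96 changed side between the libraries, at 0.01 with TMM or DESeq2 scaling against -0.01, and was called in neither.

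With 1 library at a time, Mir183 ranged from 2029 to 2278 CPM, Mir96 from 799.3 to 803.2, Mir182 from 1878 to 2209, and the share of the 3 from 0.496% to 0.504%. The log2 ratio of Mir182 over Mir183 ranged from -0.28 to 0.12 and so changed sign, Mir183 over Mir96 from 1.34 to 1.51, and Mir182 over Mir96 from 1.23 to 1.46. The cluster shares ranged from 40.3% to 46.0% for Mir183, 15.9% to 16.1% for Mir96 and 37.9% to 43.8% for Mir182. The ratio to the epithelial genes ranged from -2.25 to -2.004, the range within the cluster from 1.46 to 1.51, and the percentage of clusters with a narrower range from 21.4% to 23.8%. With gaps of up to 1 kb Mir182 leaves the cluster, so that setting gave no value. No paired analysis was possible because there is 1 group. Depth limits the members little, and 2 libraries limit every spread.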

Other observations

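Within 1 Mb of the cluster 5 other miRNA genes were counted. Mir335, at 571.6 kb and on the opposite strand, lay at 75047 ± 2156 CPM (SD, n = 2), rank 2. Mir29a, at 892.9 kb, lay at 53.3 and 70.3 CPM, and Mir29b-1 had 3 and 0 counts. Gm26220 had 0 and 1 counts, and Gm23049 had 0 in both. Of these genes only Mir335 was above the members in level, and the others were under 100 CPM. Gm23049 and Mir29b-1 share 102 and 25 hairpin bases with another gene, so reads that map to several places could be missing from them.

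The hairpins of the members had GC contents of 45.7% (Mir183), 50.9% (Mir96) and 48.0% (Mir182), against a median of 50.5% over 372 detected genes. The predicted folding energies were -26.2, -47.9 and -29.9 kcal/mol, or -0.37, -0.45 and -0.40 per base, against a median of -0.43 per base. Mir96, the lowest member in level, had the most stable predicted hairpin per base, and Mir183 the least. With 3 genes this order is a description.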
